A study of Mus musculus with 2 samples.

Results

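The genes described here are 10 inflammatory and immune cytokines: Tnf, Il1a, Il1b, Osm, Il6, Il18, Il10, Tgfb1, Ifng and Il4. They were taken by gene symbol from a matrix of 32285 genes, and each symbol matched exactly 1 row. Dissociated liver cells of 2 mouse samples, labelled Cebp KO and Cebp WT, were profiled cell by cell after 2 weeks of feeding with HFCFD (high fat, cholesterol and fructose, given as 40% in the labels). Per the study's methods, mice were male and backcrossed to C57BL/6N, and Albumin-cre, a transgene driven in hepatocytes, acted on Cebpa fl/fl alleles. The age of the animals was not found in the labels or methods. Cells came from in situ perfusion and digestion followed by 35% Percoll, and 1 lane per sample was run with 10x 3′ v3.1 reagents.

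Cytokines are small secreted proteins that carry signals between immune cells and the tissue around them. TNF, IL-1 and IL-6 drive the acute inflammatory response of the liver, IL-18 acts with IL-12 to bring IFN-gamma out of lymphocytes, and IL-10 and TGF-beta1 restrain inflammation, the latter also driving stellate cells to lay down matrix. In the liver, Kupffer cells (the resident macrophages), recruited neutrophils and monocytes, and resident T, NK and innate lymphoid cells are known sources of these signals.

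Each barcode in the joined matrix ends in 1 or 2, and no label ties either suffix to a sample, so neither library was given a genotype and knockout and wild type were not compared. With 1 sample per genotype, and because cells are not replicates, the values below are descriptions without tests. After the filters (at least 500 unique molecular identifiers, UMIs, at least 200 genes and at most 25% mitochondrial UMIs), 11617 cells with suffix 1 (median 1424 UMIs) and 6088 with suffix 2 (median 2309.5 UMIs) were kept. The limit on mitochondrial UMIs left out 5681 barcodes with suffix 1 and 8913 with suffix 2, and 34 kept barcode sequences occurred under both suffixes. Cells were classed by marker gates, lists of which at least 3 genes had to be detected, into 20 named classes, and cells that passed gates of different lineages were set apart as mixed. The hepatocyte list was read only in barcodes that passed no other gate and set no cell apart. Of 720 Kupffer-like and 252 endothelial-like cells, 113 and 48 drew at least 5% of their UMIs from that list. Of 68 check markers not used by the gate of their own class, 65 with suffix 1 and 66 with suffix 2 were higher in that class than in the other named classes together. The misses were 1 of 4 pDC markers in each library, and 2 with suffix 1 and 1 with suffix 2 of the 4 markers of a further class. This class was 189 barcodes that passed the macrophage gate with fewer than 2 Kupffer genes. A stricter measure, being highest in the own class, was met in each library by 1 of 4 hepatocyte, 2 of 4 pDC, 2 of 4 B cell and 0 of 4 of these macrophage markers, and by 3 or 4 of 4 for each other list. Of the 189 barcodes, 137 drew at least 5% of their UMIs from the hepatocyte list, so they are called C1q-gated barcodes here and not macrophages. The figures label them as having no Kupffer genes, although 1 such gene was allowed.

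Levels are given as CPM, the UMIs of a gene per 1000000 UMIs of all cells of a class in that library. The ranges behind them are exact Poisson 95% intervals, and shares of cells carry exact Clopper-Pearson 95% intervals. Both cover counting error alone and leave out any variation from mouse to mouse. The Poisson intervals take UMIs as independent, so they are too narrow where many UMIs come from few cells. The chemistry counts the 3′ ends of transcripts, and levels are compared between classes for the same gene, not between genes.

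Promoter sequences were available for 8 of the 10 genes, in the RefSeq tables on build GRCm38.p6. Shown are the 250 bases before the transcription start for genes whose levels followed contrasting or shared classes: Il1b and Il1a, neighbours on chromosome 2 that had different leading classes, and Il6 and Il4, which shared theirs. The Il1b window is chr2:129371140-129371389 (minus strand), that of Il1a is chr2:129309973-129310222 (minus strand), that of Il6 is chr5:30012864-30013113 (plus strand) and that of Il4 is chr11:53618666-53618915 (minus strand). Il4 has a further RefSeq promoter at chr11:53617339-53617588, which held none of the motifs searched and is not shown. Each is written 5′ to 3′ and ends at the base before the start. Capitals mark matches on either strand to the C/EBP motif TTGCNNAA, the family to which the product of Cebpa belongs, to the AP-1 motif TGANTCA, to the NF-kB motif (found here as GGGATTTTCC, with any base allowed at its middle 2 positions) and to the TATA box TATAAA.
Il1b promoter: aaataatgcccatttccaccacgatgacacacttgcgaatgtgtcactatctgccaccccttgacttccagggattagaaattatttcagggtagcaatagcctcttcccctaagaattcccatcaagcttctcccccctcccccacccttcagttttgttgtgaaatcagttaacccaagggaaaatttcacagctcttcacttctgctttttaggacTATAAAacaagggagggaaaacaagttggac
Il1a promoter: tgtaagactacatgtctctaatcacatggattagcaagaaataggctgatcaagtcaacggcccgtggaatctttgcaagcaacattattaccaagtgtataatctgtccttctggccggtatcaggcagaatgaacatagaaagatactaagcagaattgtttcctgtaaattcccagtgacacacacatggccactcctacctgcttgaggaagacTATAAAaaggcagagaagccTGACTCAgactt
Il6 promoter: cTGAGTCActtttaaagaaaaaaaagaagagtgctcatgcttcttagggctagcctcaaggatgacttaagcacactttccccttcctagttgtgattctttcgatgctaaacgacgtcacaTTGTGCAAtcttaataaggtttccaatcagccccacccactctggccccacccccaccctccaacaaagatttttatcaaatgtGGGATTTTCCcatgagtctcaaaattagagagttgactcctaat
Il4 promoter: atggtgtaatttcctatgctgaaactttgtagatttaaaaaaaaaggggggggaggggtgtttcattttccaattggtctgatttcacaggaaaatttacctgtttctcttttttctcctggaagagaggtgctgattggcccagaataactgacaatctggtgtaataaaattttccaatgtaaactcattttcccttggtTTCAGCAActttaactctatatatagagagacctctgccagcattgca

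In these windows the C/EBP letters occurred in Il6, starting 128 bases before the start as TTGTGCAA, and in Il4, starting 48 bases before it as TTCAGCAA. The Il6 window also held the AP-1 motif at 249 bases and the NF-kB motif at 44 bases before the start. The TATA box lay 31 bases before the start of Il1b and 32 before that of Il1a, and Il1a alone of this pair had an AP-1 match, 12 bases before the start. Of 32851 promoter windows of the same length in the reference, 9.56% held the C/EBP motif, 6.75% the AP-1 motif, 1.21% the NF-kB motif and 12.4% the TATA box. These are matches of letters, chosen with the sequences in view, and no binding was measured here.

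Il1b, the gene for the secreted form of IL-1 that needs cleavage by an inflammasome, lay on chromosome 2 at 129364570 to 129371139 (minus strand, GRCm38, GENCODE M21). Neutrophil-like cells were its leading class. In neutrophil-like cells it was at 2368 CPM (2211–2533, 846 UMIs) with suffix 1 and 1977 CPM (1741–2237, 252 UMIs) with suffix 2. Of these cells, 110 of 128 (85.9%) and 44 of 49 (89.8%) had an Il1b UMI, with a median of 7 and 5 UMIs in the positive cells. Their median depth was 2493 and 1996 UMIs. Thinned to 1000 UMIs per cell, the share was 76.4% and 76.6%, while in shallow hepatocyte-like droplets (under 5000 UMIs), which should lack the transcript and had median depths of 1103 and 1154 UMIs, it was 0.101% and 0.103%. The interval lay apart from that of every other class in both libraries, and neutrophil-like cells held 71.6% of the Il1b UMIs of kept cells with suffix 1 and 41.5% with suffix 2.

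Kupffer-like cells were the next large holder of Il1b. They had 50.5 CPM (42.7–59.3, 149 UMIs) with suffix 1 and 61.0 CPM (52.9–70.0, 203 UMIs) with suffix 2, and 24.9% and 22.8% of them had a UMI. With 2 instead of 3 markers to pass a gate these levels were 9.84 and 34.3 CPM. The neutrophil list was at 65.1 and 64.3 CPM in these cells in sum, against 60703 and 54323 CPM in neutrophil-like cells, with Ly6g and Stfa2l1 at 0 in both libraries. The part of neutrophil RNA in the Il1b of Kupffer-like cells was not tested. Ly6c-low monocyte-like cells had 1 UMI of Il1b in 16 cells with suffix 1 but 34 UMIs in 30 cells with suffix 2 (202 CPM, 140–282). These UMIs came from 9 cells, the highest with 10 UMIs, and without it the level was 149 CPM. The neutrophil list in these cells was at 98.7 CPM with suffix 1, where 1 of its 8 genes had a UMI, and at 136 CPM with suffix 2, where 3 had, and its part in the difference was not tested. Classical monocyte-like cells were at 21.1 CPM (7.75–46.0) and 45.9 CPM (20.97–87.0), with intervals that overlapped those of Kupffer-like cells. Their highest cell held 4 of 6 UMIs with suffix 1 and 7 of 9 with suffix 2. Without it the levels were 7.24 and 10.5 CPM, below the Kupffer-like intervals. Conventional dendritic cell-like (cDC-like) cells had 4 and 14 UMIs. B-like, T-like, NK or ILC1-like and endothelial-like cells had at most 3 UMIs of Il1b per class and library. Plasmacytoid dendritic cell-like (pDC-like) cells had 11 UMIs with suffix 1, all in 1 cell, and 1 UMI with suffix 2.

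Il1a, the form of IL-1 that is active without inflammasome cleavage, lies 54597 bases from Il1b, at 129299610 to 129309972 on the same strand. It did not follow its neighbour. Each of the pair overlaps an antisense gene, Il1bos for Il1b, with 3 and 1 UMIs in neutrophil-like cells, and Gm14023 for Il1a, with 1 UMI in endothelial-like cells of each library. In endothelial-like cells it was at 87.5 CPM (65.7–114, 54 UMIs) with suffix 1 and 53.9 CPM (36.9–76.1, 32 UMIs) with suffix 2, and 33.9% (25.4–43.2) and 17.9% (11.8–25.5) of these cells had a UMI. These were the highest class levels in both libraries, with intervals apart from those of Kupffer-like cells, at 14.2 CPM (10.3–19.2, 42 UMIs) and 23.7 CPM (18.8–29.6, 79 UMIs). With 2 markers to pass a gate, the levels were 48.4 and 34.0 CPM in endothelial-like and 5.41 and 11.2 CPM in Kupffer-like cells. At 1000 UMIs per cell, 11.1% and 6.02% of endothelial-like cells were positive, against 0.0203% and 0% of shallow hepatocyte-like droplets. No Il1a UMI was found in neutrophil-like cells, the leading class for Il1b, and a count of 0 there leaves room for 8.40 and 23.5 CPM. Conversely, endothelial-like cells had 0 UMIs of Il1b, for which the limit is 4.86 and 5.05 CPM.

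By the gates, a cell with 3 macrophage and 3 endothelial genes was mixed, so some macrophage RNA could still lie in the endothelial-like class. The 6 Kupffer genes together were at 58.3 and 52.2 CPM in endothelial-like cells, against 8472 and 10170 CPM in Kupffer-like cells. All 6 had a UMI with suffix 1, and Marco was at 0 with suffix 2. The 8 macrophage genes were at 1517 and 1029 CPM in endothelial-like cells, below the 8132 and 9963 CPM of Kupffer-like cells, with Ms4a7 at 0 in both libraries and Adgre1 at 0 with suffix 1. These genes also set the gates, and the part of macrophage RNA in the Il1a of endothelial-like cells was not tested. Mixed cells held 39.1% and 33.7% of all Il1a UMIs, and most of these, 45 of 75 and 30 of 58, were in cells that passed gates of the endothelial and myeloid lineages and no other.

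In the plot of the IL-1 family and Tgfb1 by class, the separation of Il1b and Il1a is visible as points at opposite rows.

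**Figure D1:**
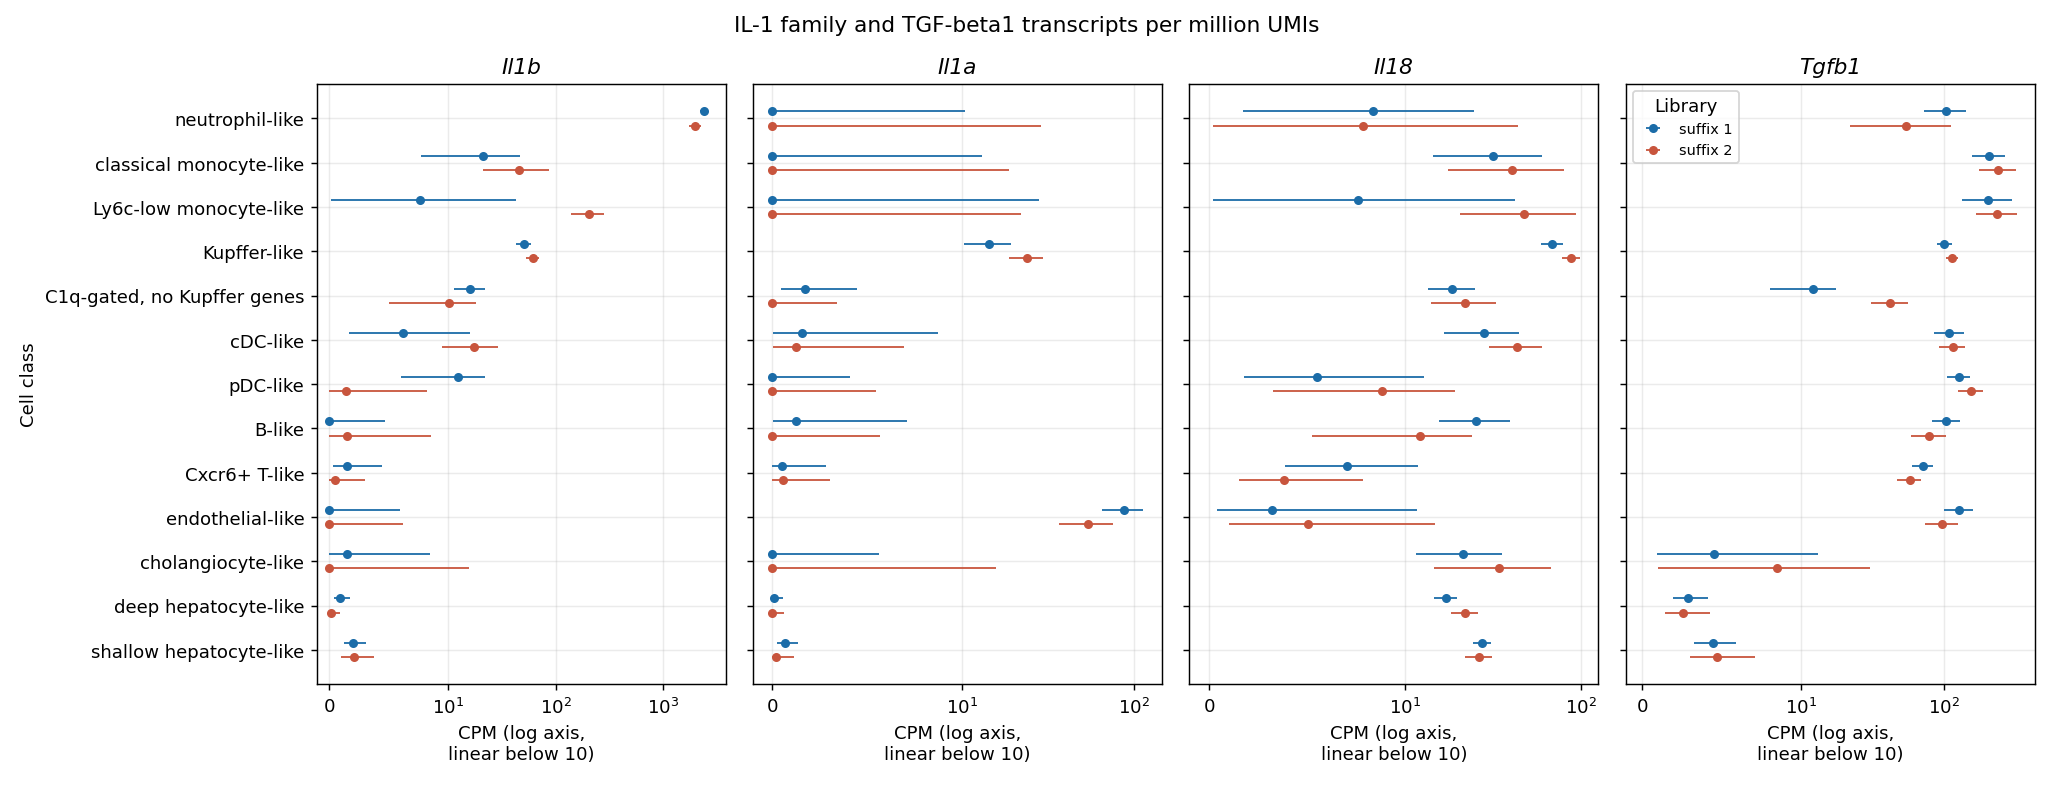
CPM of Il1b, Il1a, Il18 and Tgfb1 (x axes, log scale above 10 CPM and linear below) in 13 cell classes (y axis) for the library with suffix 1 (blue) and suffix 2 (red), with bars for exact Poisson 95% intervals. Il1b peaked in neutrophil-like cells at 2368 and 1977 CPM, Il1a in endothelial-like cells at 87.5 and 53.9 CPM, and Tgfb1 was spread over the leukocyte classes.

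Within Kupffer-like cells, Il1b was found in 13 of 33 Il1a-positive cells with suffix 1 (39.4%, 22.9–57.9) and 57 of 248 Il1a-negative cells (23.0%, 17.9–28.7). With suffix 2 the shares were 33.9% (22.3–47.0) and 20.95% (16.96–25.4). The positive cells were also deeper, with medians of 11215 against 8866 UMIs and 8738 against 6017 UMIs, and the intervals overlapped in both libraries. For Il18 and Il1b the shares were 33.0% (24.6–42.4) of Il18-positive and 19.3% (13.6–26.1) of Il18-negative cells with suffix 1, and 31.1% (24.3–38.5) and 17.2% (12.8–22.3) with suffix 2, again with deeper positive cells (11397 against 6803 and 8396 against 5252 UMIs).

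Il18, the third member of the IL-1 family here, is cleaved by the same inflammasome and acts on T and NK cells. It lies on chromosome 9 at 50554827 to 50581840 (plus strand), where Bco2 and Tex12 overlap it on the minus strand. Kupffer-like cells had 68.4 CPM (59.3–78.6, 202 UMIs) with suffix 1 and 87.8 CPM (78.0–98.4, 292 UMIs) with suffix 2, and 40.9% and 40.3% had a UMI. With 2 markers to pass a gate these levels were 35.4 and 54.0 CPM. Several classes had lower or overlapping levels. Classical monocyte-like cells had 31.7 CPM (14.5–60.2) and 40.8 CPM (17.6–80.3), cDC-like cells 28.1 CPM (16.6–44.4) and 43.4 CPM (30.2–60.3), and cholangiocyte-like cells 21.2 CPM (11.6–35.6) and 34.1 CPM (14.7–67.1). These 3 classes did not differ from each other beyond their intervals. Ly6c-low monocyte-like cells had 1 and 8 UMIs (7.59 and 47.4 CPM), the latter being the second highest level with suffix 2. Neutrophil-like cells, which led for Il1b, had 3 and 1 UMIs of Il18.

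Of the members, Il18 had the largest share of its UMIs in hepatocyte-like barcodes, 44.7% with suffix 1 and 31.2% with suffix 2. Deep hepatocyte-like cells (at least 5000 UMIs) had 17.1 CPM (14.7–19.9, 176 UMIs) and 21.8 CPM (18.2–26.0, 126 UMIs), and shallow ones 27.5 CPM (24.5–30.8) and 26.3 CPM (21.9–31.2). The level in Cxcr6+ T-like cells was 7.06 CPM (3.86–11.9) and 3.81 CPM (1.53–7.85), below the hepatocyte intervals in both libraries. In B-like cells it was 25.5 CPM (15.6–39.3) and 12.2 CPM (5.28–24.1), which overlapped the intervals of deep hepatocyte-like cells in both libraries, so the hepatocyte level was not above that of every lymphocyte class. Thinned to 1000 UMIs, 1.896% and 2.17% of deep hepatocyte-like cells had an Il18 UMI, against 0.287% and 0.276% of Cxcr6+ T-like cells and 6.50% and 8.41% of Kupffer-like cells. The Kupffer genes in sum were at 36.2 and 43.7 CPM in deep hepatocyte-like cells, against 8472 and 10170 CPM in Kupffer-like cells, which were gated on them, and the part of Kupffer cell RNA in the Il18 of hepatocyte-like cells was not tested. Bco2, on the opposite strand, was at 7.01 and 6.93 CPM in deep hepatocyte-like cells and at 12.9 and 12.02 CPM in Kupffer-like cells. Whether the counting was stranded is not stated in the sources used here, so reads of these overlapping genes cannot be fully told apart.

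Plasma-like cells with suffix 1 had the highest class level of Il18 in that library, 130 CPM (84.3–192), from 25 UMIs in 8 of 13 cells. With suffix 2 the same class had 13.2 CPM (4.28–30.8) from 5 UMIs in 28 cells. The highest cell had 6 UMIs, and without it the level with suffix 1 was 107 CPM. Among the 6 Kupffer genes, 2 had a UMI in these cells with suffix 1, at 31.3 CPM in sum.

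The libraries were also compared by the ratio of their levels with 3 UMIs added to each count, over genes with at least 20 UMIs. On this scale 0 of 5 members tested in Kupffer-like cells (Il1a, Il1b, Il18, Il10 and Tgfb1) differed 2-fold or more, where 4.03% of the 10916 genes tested did. In neutrophil-like cells 0 of 2 members did (background 8.45%), and in endothelial-like cells 0 of 2 (background 4.02%). No member passed this limit in 9 further classes either: 0 of 3 in cDC-like (background 4.44%), other T-like (4.23%) and shallow hepatocyte-like cells (6.45%), 0 of 2 in B-like (3.98%) and deep hepatocyte-like cells (6.44%), and 0 of 1 in pDC-like (3.47%), classical monocyte-like (4.82%), cholangiocyte-like (8.58%) and CD8 T-like cells (6.36%). In stellate-like cells no member had enough UMIs (background 8.2%). Ly6c-low monocyte-like, plasma-like, basophil or mast cell-like and erythroid-like cells had under 20 cells in at least 1 library and were left out of this comparison, although they include the differences of Il1b (7.59 and 202 CPM in Ly6c-low monocyte-like cells) and Il18 (130 and 13.2 CPM in plasma-like cells). The added UMIs decided 3 of these values, which differ by more than 2-fold as plain CPM: Il10 in Kupffer-like cells (2.03 and 4.51 CPM), Ifng in other T-like cells (14.5 and 29.8 CPM) and Il18 in B-like cells (25.5 and 12.2 CPM), all with overlapping intervals.

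Tnf, the gene for tumor necrosis factor, lies on chromosome 17 at 35199381 to 35202007 (minus strand). It was sparse, with 140 UMIs in 98 kept cells of suffix 1 and 120 UMIs in 80 cells of suffix 2, and was not concentrated in a class. Among the named classes Cxcr6+ T-like cells held 23.6% and 19.2% of UMIs, while mixed cells held 18.6% and 25.8%. The share of Cxcr6+ T-like cells was 13.6% and 8.33% with 2 markers to pass a gate. Cxcr6+ T-like cells were at 16.7 CPM (11.5–23.4) and 12.5 CPM (7.93–18.8). The cDC-like cells were at 15.6 CPM (7.48–28.7) and 17.4 CPM (9.49–29.1), the other T-like cells at 11.2 CPM (4.52–23.2) and 20.5 CPM (10.2–36.6), and the classical monocyte-like cells at 28.2 CPM (12.2–55.5) and 20.4 CPM (5.55–52.2). The intervals of these 4 classes overlapped in both libraries. Kupffer-like cells were lower, at 2.03 CPM (0.746–4.43, 6 UMIs) and 3.91 CPM (2.08–6.68, 13 UMIs), below the interval of Cxcr6+ T-like cells in both. Deep hepatocyte-like cells had 2 and 0 UMIs.

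Several Tnf levels rested on single cells. The highest class with suffix 1, neutrophil-like cells at 36.4 CPM (19.4–62.2), had 13 UMIs in 8 cells, was at 22.6 CPM without its highest cell of 5 UMIs, and had 1 UMI with suffix 2. The highest with suffix 2, Ly6c-low monocyte-like cells at 35.6 CPM, drew its 6 UMIs from 1 cell and was at 0 without it. Without their highest cell, classical monocyte-like cells were at 7.22 and 5.25 CPM, and cDC-like cells of suffix 2 at 8.91 CPM.

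Il6, the inducer of acute-phase proteins in hepatocytes, lies on chromosome 5 at 30013114 to 30019981 (plus strand). It had UMIs in 2 of the 20 named classes in each library, and these were the same ones. Basophil or mast cell-like cells had 13 UMIs in 7 of 12 cells with suffix 1 (251 CPM, 134–429) and 3 UMIs in 3 of 8 cells with suffix 2 (99.9 CPM, 20.6–292). The highest of them held 6 UMIs with suffix 1, and without it the level was 145 CPM. Tpsb2, a mast cell tryptase, was at 0 in this class in both libraries, while the gate genes of basophils such as Mcpt8 were detected. Kupffer-like cells had 9 UMIs in 8 of 281 cells (3.05 CPM, 1.39–5.79) and 10 UMIs in 8 of 439 cells (3.01 CPM, 1.44–5.53), with both intervals below that of the basophil or mast cell-like class in the same library. With 2 markers to pass a gate, the Kupffer-like level with suffix 1 was 0.984 CPM. Endothelial-like, stellate-like and hepatocyte-like cells were among the 18 classes at 0, and the limit this allows was 0.292 and 0.520 CPM in deep hepatocyte-like, 4.86 and 5.05 CPM in endothelial-like and 36.4 and 24.4 CPM in stellate-like cells, the last being wide for so few cells. A further 13 and 4 UMIs were in mixed cells, 9 and 1 of these in cells with endothelial and myeloid gates and no other, and 8 of the 13 came from 1 cell.

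Osm, which encodes oncostatin M of the IL-6 family, lies on chromosome 11 at 4236420 to 4241026 (plus strand) and had 20 and 18 UMIs in kept cells. T-like and NK or ILC1-like cells together held 10 of 20 and 10 of 18 UMIs. Cxcr6+ T-like cells, with 5 and 7 UMIs, were at 2.52 CPM (0.819–5.89) and 3.81 CPM (1.53–7.85). Neutrophil-like cells had 3 and 1 UMIs and Kupffer-like cells 1 and 0, and no order among the classes could be read at this depth.

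Il10, the gene of an anti-inflammatory cytokine, lies on chromosome 1 at 131019845 to 131024974 (plus strand). It had 19 and 20 UMIs, as few as Osm, and Kupffer-like cells held the most among the named classes, with 6 UMIs in 6 cells (2.03 CPM, 0.746–4.43) and 15 UMIs in 10 cells (4.51 CPM, 2.52–7.44). This was 31.6% and 75.0% of its UMIs, while mixed cells held 6 and 4 UMIs. The share of Kupffer-like cells was 10.5% and 35.0% with 2 markers to pass a gate. In the named classes outside the macrophage gate it had 4 UMIs with suffix 1 and 1 with suffix 2, and 0 in B-like cells (limits of 3.82 and 4.59 CPM).

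**Figure D2:**
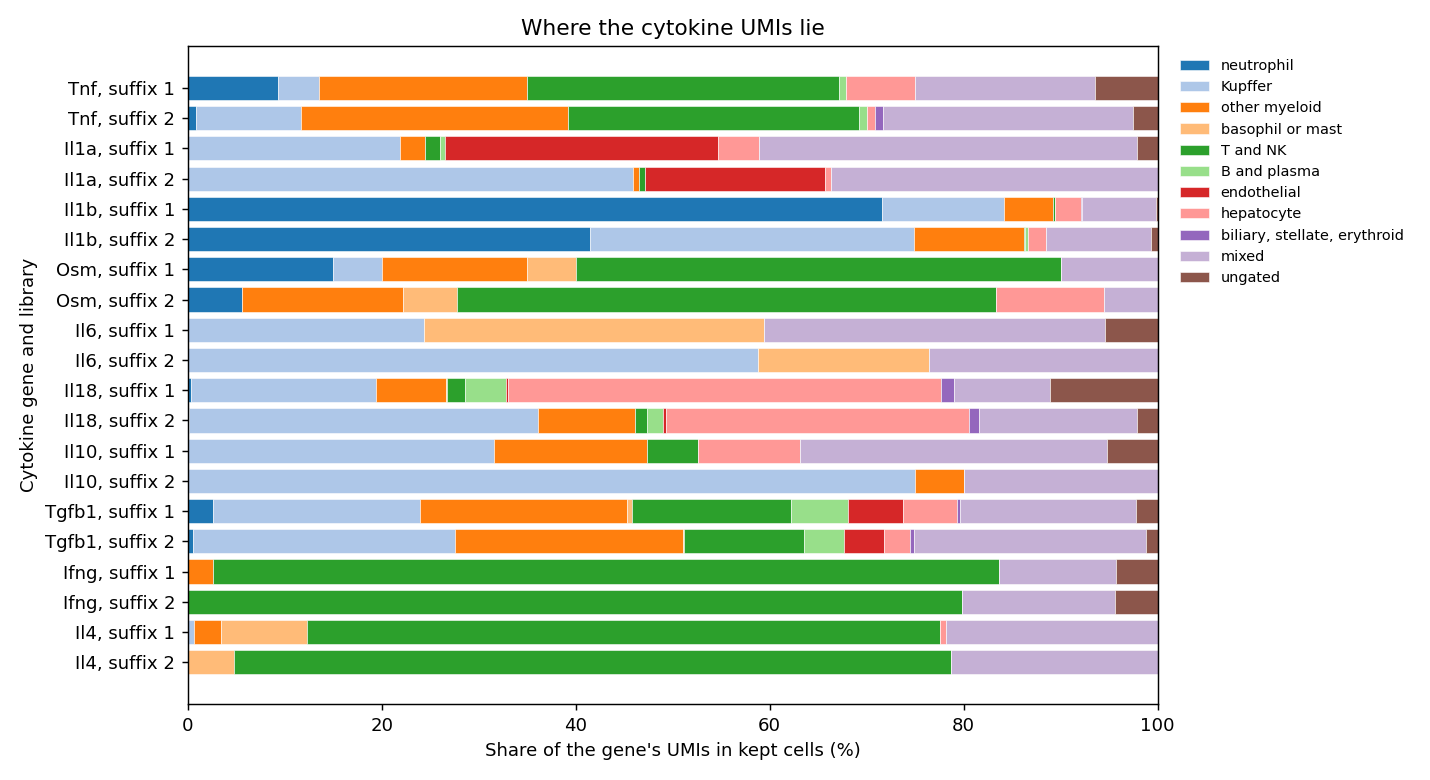
Share of the UMIs of each cytokine in kept cells (x axis, %) by group of cell classes (colors), with 1 bar for each gene and library (y axis). Neutrophils hold 71.6% and 41.5% of Il1b, with 12.6% and 33.4% in Kupffer cells, and T and NK cells hold most of Ifng and Il4; bars of Osm, Il6 and Il10 rest on 17 to 37 UMIs each.

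The stacked bars of cytokine sources show how few groups carry Il6, Ifng and Il4, and how much of Il1a lies in mixed cells.

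Tgfb1, which encodes a latent growth factor that must be released from its binding proteins, lies on chromosome 7 at 25687002 to 25705077 (plus strand). It was the most widely detected member, above 0 in 19 of 20 named classes in each library. The monocyte classes were highest: classical monocyte-like cells had 208 CPM (158–268) and 240 CPM (176–318), with 81.3% and 76.9% of cells positive, and Ly6c-low monocyte-like cells 205 CPM (135–298) and 237 CPM (169–323). These 2 classes did not differ beyond their intervals. Below them in CPM were pDC-like cells (127 and 155 CPM), endothelial-like cells (128 and 97.7 CPM), cDC-like cells (109 and 115 CPM), B-like cells (104 and 79.5 CPM) and Kupffer-like cells (101 and 115 CPM), which held 21.3% and 27.0% of its UMIs. This order is by CPM alone, and intervals of some of these classes overlapped those of the monocyte classes. With 2 markers to pass a gate, Tgfb1 in Kupffer-like cells was at 36.9 and 64.5 CPM, and their share of its UMIs was 5.35% and 6.53%. T-like classes were at 45.5 to 71.1 CPM. Neutrophil-like (104 and 54.9 CPM) and basophil or mast cell-like cells (135 and 66.6 CPM, from 7 and 2 UMIs) had wide intervals. At median depths of 25204 and 11989 UMIs, 6.40% and 3.37% of deep hepatocyte-like cells had a Tgfb1 UMI, at 2.92 CPM (1.97–4.17) and 2.60 CPM (1.46–4.29), and stellate-like cells had 2 and 4 UMIs (24.3 and 32.6 CPM).

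Tgfb1 was the 1 of 3 members measured in C1q-gated barcodes that differed 2-fold between the libraries, at 12.1 CPM (8.06–17.5) with suffix 1 and 42.2 CPM (30.9–56.3) with suffix 2, where 9.09% of 8896 genes did. The median depth of these barcodes was 24659 and 10862 UMIs.

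Ifng and Il4 are the signature cytokines of type 1 and type 2 lymphocyte responses. Ifng lies on chromosome 10 at 118441046 to 118445892 (plus strand, with Gm49751 on the same strand) and Il4 on chromosome 11 at 53602982 to 53618669 (minus strand). Both had most of their UMIs in T-like cells that carried a transcript of Cxcr6, a receptor of liver-resident lymphocytes. Of Ifng, 51.7% and 65.4% of UMIs were in Cxcr6+ T-like cells, at 30.3 CPM (23.1–39.0, 60 UMIs) with suffix 1 and 56.6 CPM (46.2–68.6, 104 UMIs) with suffix 2. Of Il4, 59.9% and 66.9% were there, at 44.4 CPM (35.6–54.7, 88 UMIs) and 61.5 CPM (50.7–73.9, 113 UMIs). With 2 markers to pass a gate, the levels stayed within these intervals, but the class held 38.8% and 42.8% of Ifng and 36.7% and 42.6% of Il4 UMIs. In this class 12.9% and 14.9% of cells had an Ifng UMI and 18.4% and 20.4% an Il4 UMI, against 0 of 186 and 0 of 162 B-like cells for either gene (median depths of 4692 and 4322 UMIs against 3610 and 3041). For both genes suffix 2 was higher, for Ifng with CPM intervals apart, but below the 2-fold limit: of 5 members tested in these cells (Tnf, Il18, Tgfb1, Ifng and Il4), 0 passed it, and 2.89% of 9954 genes did. The intervals of the share of Ifng-positive cells overlapped, at 9.59% to 16.9% with suffix 1 and 11.4% to 18.96% with suffix 2.

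T-like cells without Cxcr6 or Cd8 transcripts had 14.5 CPM (6.61–27.4) and 29.8 CPM (17.0–48.4) of Ifng and 12.8 CPM (5.55–25.3) and 22.3 CPM (11.5–39.0) of Il4. With suffix 1, 5 of the 9 Ifng UMIs came from 1 cell. Without the highest cell, Ifng was at 6.47 and 22.8 CPM. The Il4 intervals lay below those of Cxcr6+ T-like cells in both libraries, and the Ifng intervals overlapped them. CD8 T-like cells had 6 and 3 UMIs of Ifng (10.1 and 8.43 CPM) and 0 of Il4 (limits of 5.05 and 8.43 CPM). NK or ILC1-like cells also had 0 Il4 UMIs (limits of 10.1 and 12.97 CPM). Their Ifng was at 64.2 CPM (38.6–100, 19 UMIs in 8 of 73 cells) with suffix 1 and 17.3 CPM (4.71–44.3, 4 UMIs in 3 of 54 cells) with suffix 2. That made 1 of 2 members past the 2-fold limit in this class (background 4.34%), but 12 of the 19 UMIs came from 1 cell, and without it the level was 24.1 CPM. The levels were 90.6 CPM with suffix 1 and 4.85 CPM with suffix 2 when 2 markers were enough to pass a gate.

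Il4 was highest in the basophil or mast cell-like class, as Il6 was. There it had 13 UMIs in 7 of 12 cells with suffix 1 (251 CPM, 134–429) and 8 UMIs in 6 of 8 cells with suffix 2 (266 CPM, 115–525), with intervals apart from those of Cxcr6+ T-like cells. Of the 8 T-cell genes, 7 were at 0 in this class in both libraries, the exception being Trbc1 with 4 and 6 UMIs. Il6 and Il4 occurred together in 4 of 12 and 2 of 8 of these cells.

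Whether Ifng and Il4 shared cells was read within Cxcr6+ T-like cells. With suffix 1, 9 of 45 Ifng-positive cells had an Il4 UMI (interval 9.58% to 34.6%), against 18.2% (13.98–22.96) of the Ifng-negative cells. With suffix 2, 12 of 54 did (22.2%, 12.04–35.6), against 20.1% (15.7–24.97). The intervals overlapped in both libraries and are too wide to show a small difference. Tnf was found in 10.8% of Il4-positive and 3.81% of Il4-negative cells with suffix 2 but in 6.25% and 7.75% with suffix 1, so that no shared direction was seen.

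**Figure D3:**
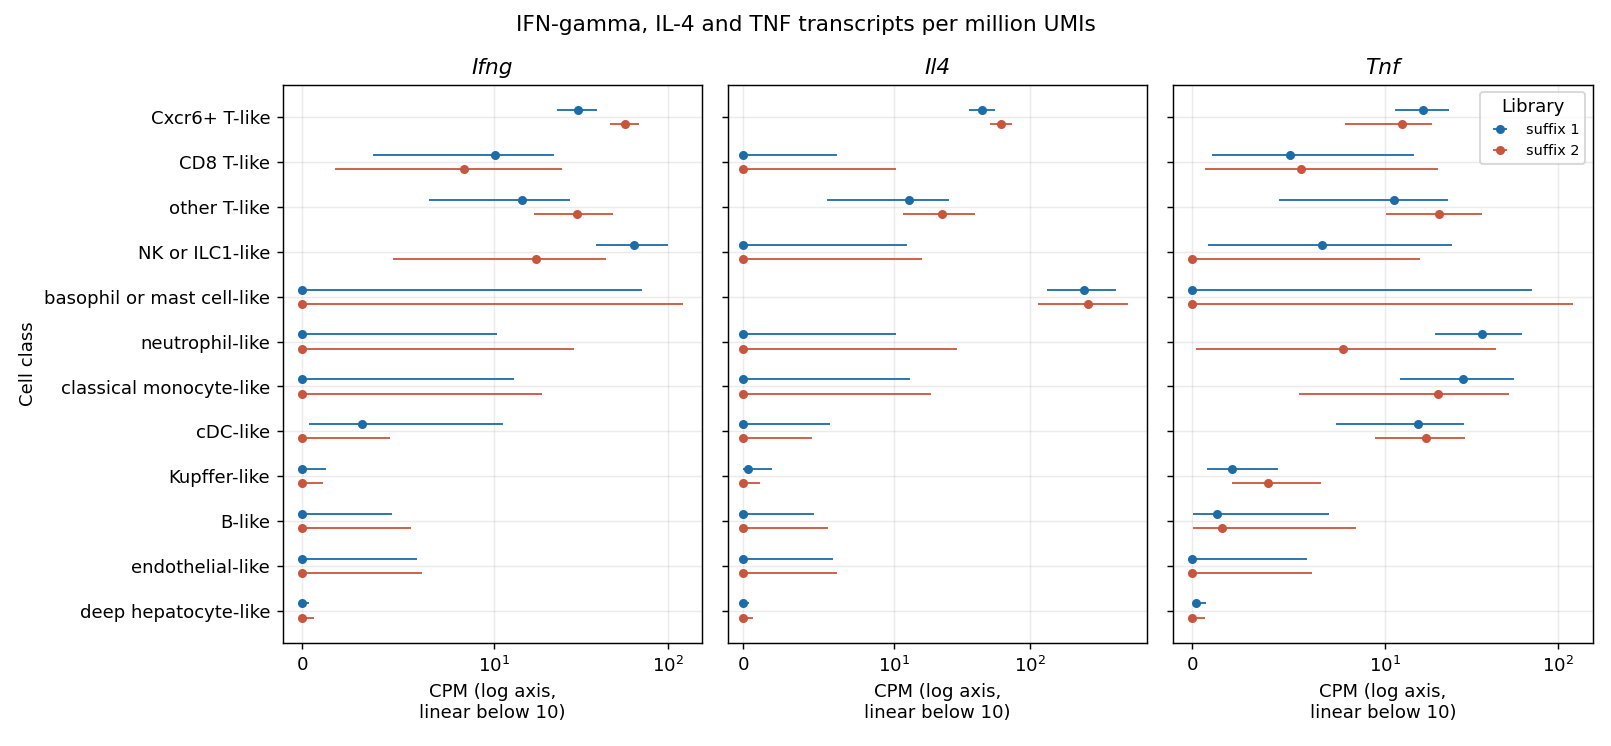
CPM of Ifng, Il4 and Tnf (x axes, log scale above 10 CPM and linear below) in 12 cell classes (y axis) for the library with suffix 1 (blue) and suffix 2 (red), with bars for exact Poisson 95% intervals. Ifng in Cxcr6+ T-like cells is at 30.3 and 56.6 CPM and in NK or ILC1-like cells at 64.2 and 17.3 CPM, Il4 reaches 251 and 266 CPM in basophil or mast cell-like cells, and Tnf is spread with wide intervals.

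**Figure D4:**
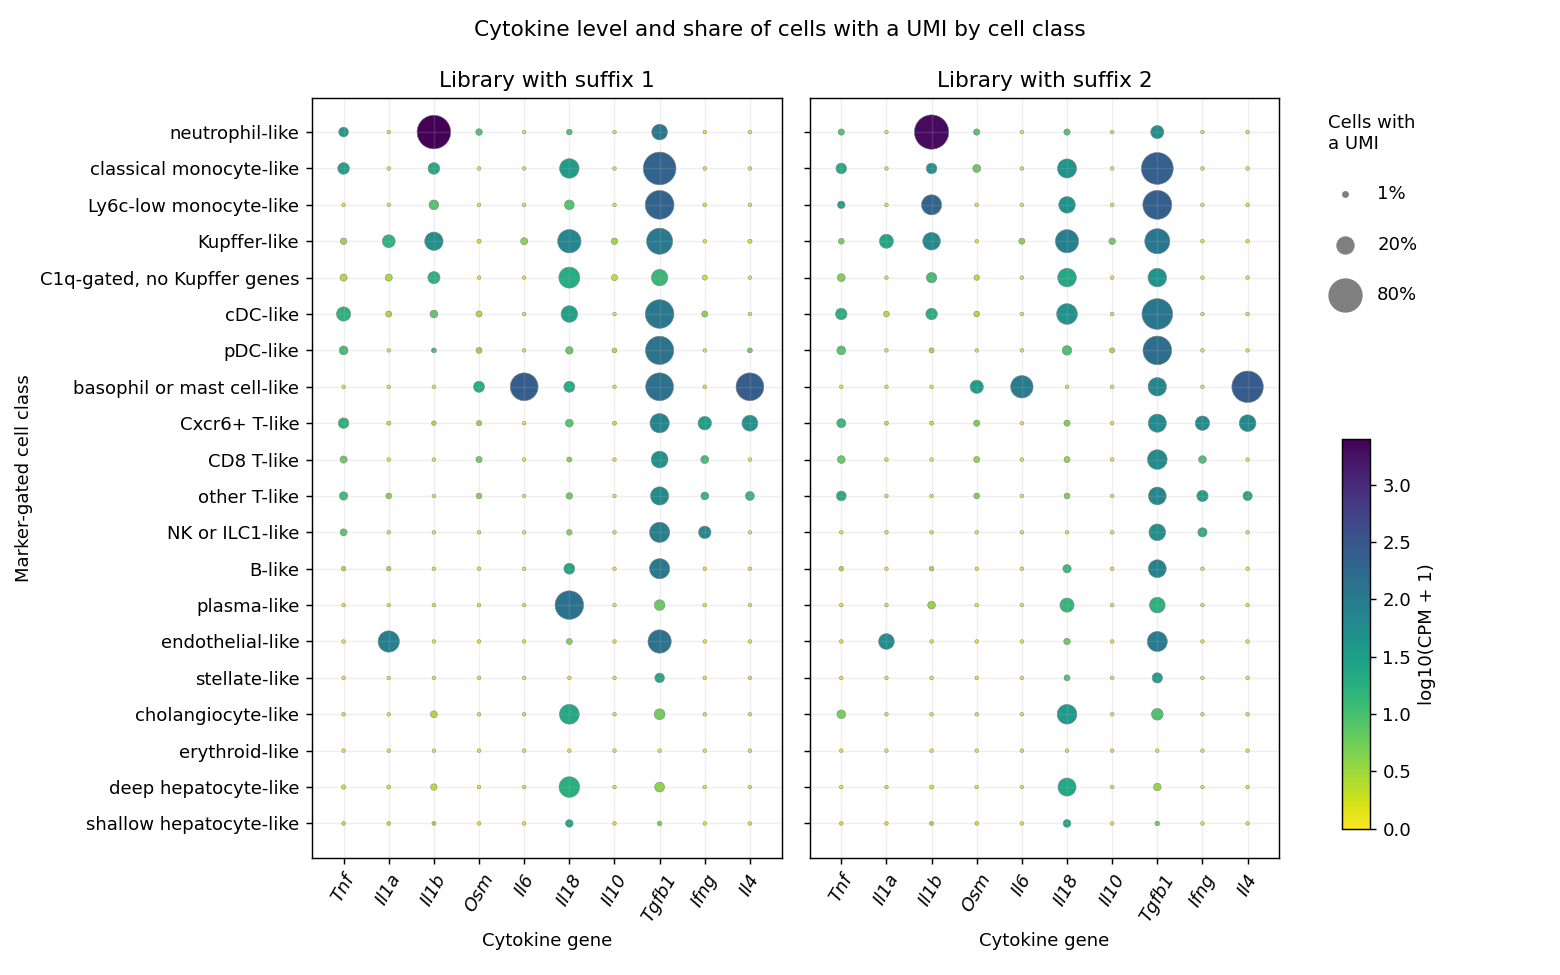
All 10 cytokines (x axis) in the 20 named cell classes (y axis), in 1 panel for each library. The color gives log10(CPM + 1) and the dot area the share of cells with a UMI (%), with 85.9% and 89.8% for Il1b in neutrophil-like cells as the largest.

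The dot plot of level and share of cells puts all members side by side, and the panels of the libraries show the same highest class for 7 of the 10 genes, the exceptions being Tnf, Il18 and Ifng. For Osm, 1 of the 7, that class rests on 1 UMI in each library, and for Osm, Il10 and Tgfb1 the intervals of the highest and next class overlapped.

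Receptors, antagonists and related genes of the cytokines were measured from 6 lists with 57 genes. The lists cover TNF (7 genes), IL-1 and IL-18 (13), IL-6 and oncostatin M (8), IL-10 (6), TGF-beta (10), and IFN-gamma and IL-4 (13). In neutrophil-like cells 14 of the 57 genes were at 100 CPM or more in both libraries (3, 4, 2, 1, 2 and 2 in the order of the lists), against 6.53% of all 22439 genes with a UMI (background). Classical monocyte-like cells had 12 (4, 1, 2, 1, 2 and 2; background 6.14%) and Kupffer-like cells 11 (2, 1, 2, 2, 2 and 2; background 7.27%). Cxcr6+ T-like cells had 9 (2, 2, 0, 0, 1 and 4; background 6.57%) and endothelial-like cells 7 (0, 1, 4, 0, 2 and 0; background 7.34%). The other 15 classes had 0 to 9, with backgrounds of 0.82% to 6.83%. These counts describe genes chosen for their part in the pathways and were not tested. For the IL-1 axis, the decoy receptor Il1r2, also a check marker of the class, was at 431 and 196 CPM in neutrophil-like cells, the class with the most Il1b, and at 1 and 0 UMIs in Kupffer-like cells. The antagonist Il1rn, also in neutrophil-like cells, was at 151 and 86.3 CPM, and the inflammasome sensor Nlrp3 at 165 and 212 CPM. The signaling receptor Il1r1 was highest in stellate-like (218 and 179 CPM) and endothelial-like cells (100.4 and 104 CPM), so that endothelial-like cells held both Il1a and its receptor. Its coreceptor Il1rap was at 119 and 116 CPM in deep hepatocyte-like cells.

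For IL-18, ligand and inhibitor shared a class. Il18bp, the secreted protein that binds IL-18, was at 351 CPM (330–373) and 461 CPM (439–485) in Kupffer-like cells, with 77.6% and 81.8% of cells positive, and at 4.97 and 4.85 CPM in deep hepatocyte-like cells. The receptor chain Il18r1 was at 260 and 177 CPM in NK or ILC1-like cells and at 110 and 117 CPM in Cxcr6+ T-like cells. Il18rap, the other chain, was at 260 and 203 CPM and at 87.8 and 90.9 CPM in these classes, and at 277 and 133 CPM in neutrophil-like cells. Both chains were also at 100 CPM or more in basophil or mast cell-like cells of both libraries, as was Il18r1 in other T-like cells.

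For IL-6 and oncostatin M, the receptor chains were split. Il6ra was at 201 and 227 CPM in Kupffer-like, 291 and 267 CPM in neutrophil-like and 60.4 and 47.8 CPM in deep hepatocyte-like cells. The shared chain Il6st was highest in endothelial-like cells (849 and 734 CPM), as were Lifr (638 and 431 CPM) and Osmr (181 and 133 CPM). Osmr had 3 and 1 UMIs in deep hepatocyte-like cells. Both IL-10 receptor chains were above 100 CPM in Kupffer-like cells: Il10ra was at 111 and 125 CPM and Il10rb at 123 and 153 CPM.

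For TNF, Tnfrsf1b was at 380 and 326 CPM in Ly6c-low monocyte-like cells, and Tnfrsf1a at 140 and 118 CPM in neutrophil-like and 85.8 and 104 CPM in endothelial-like cells. Ltb, a lymphotoxin subunit of the TNF family, was at 569 and 644 CPM in Cxcr6+ T-like cells. For TGF-beta1, Nrros, which anchors the latent factor on myeloid cells, was at 194 and 301 CPM in classical monocyte-like and 144 and 141 CPM in Kupffer-like cells. Ltbp1, a matrix anchor, was at 206 and 114 CPM in stellate-like cells, and the coreceptor Tgfbr3 at 340 and 570 CPM there. Ifngr1 was at 276 and 285 CPM in Kupffer-like cells. The interleukin-12 receptor chain Il12rb2 and the type 1 factor Tbx21 were at 149 and 146 CPM and at 145 and 152 CPM in Cxcr6+ T-like cells, the class that also held Il4.

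**Figure D5:**
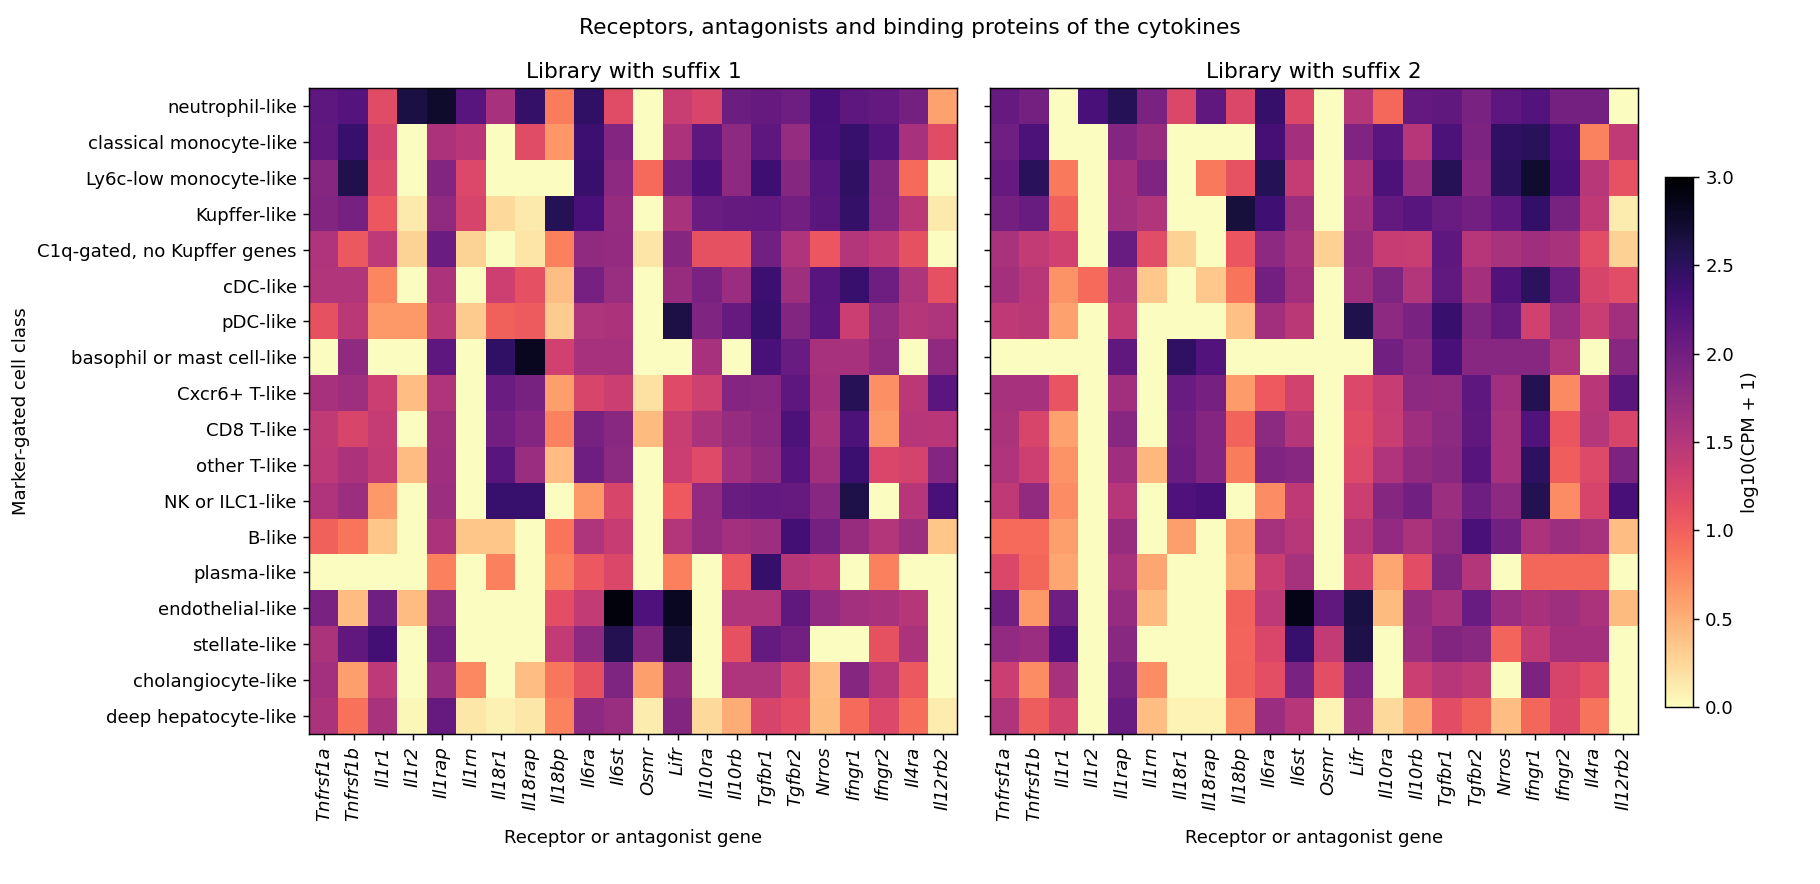
Level of 22 receptor, antagonist and binding protein genes (x axis) in 18 cell classes (y axis) in each library, with color for log10(CPM + 1). Il18bp stands out in Kupffer-like cells (351 and 461 CPM), Il1r2 in neutrophil-like cells, and Il6st, Lifr and Osmr in endothelial-like cells.

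The heat map shows receptor, antagonist and binding protein genes and not the cytokines themselves. It sets the binding protein gene Il18bp in Kupffer-like cells beside the receptor gene Il18r1 in NK or ILC1-like cells.

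For the 8 members with at least 50 UMIs, the genes with the most similar profile were sought by Pearson r of log2(CPM + 10) over 34 profiles, each a class with at least 20 cells in 1 library, among 14158 genes. The profiles share libraries and differ in depth, and r is a description without a test. Il1b was most like C5ar1 (r = 0.967), Csf3r (0.965, a gate gene of neutrophils) and Clec4d (0.951). Il1a was most like Stab2 (0.974, a gate gene of endothelial cells), She (0.959) and Stab1 (0.959). Il4 followed Tnfsf11 (0.976), Gm35363 (0.959) and Cd40lg (0.949), and Ifng followed Gm29243 (0.964), Fasl (0.962) and Eya2 (0.957). Tgfb1 was closest to Pitpna (0.954), Nrros (0.929) and Mob1a (0.919). Tnf (Nfkbid, 0.829, Stx11, 0.815, and Mbp, 0.810) and Il18 (Rab32, 0.809, Myof, 0.807, and Lacc1, 0.784) had weaker likeness. For Il6 the values (Naip1, 0.999, Slc1a3, 0.999, and Smc1b, 0.996) rest on Kupffer-like cells, since the basophil or mast cell-like class was under the limit of 20 cells.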

How the data were processed

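Whole-number UMI counts per gene and barcode were deposited for both libraries as 1 joined matrix. Per the file headers, Cell Ranger 7.1.0 was used by the authors to make the counts, and the submitters' processing notes also name bcl2fastq 2.20.0, STAR 2.7.2a and build mm10. The annotation and the treatment of strand and introns were not given in the sources used here. With 1 sample per genotype and barcode suffixes that the labels do not explain, no count test was applied.

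Filters required 500 UMIs, 200 genes and no more than 25% of UMIs from 13 mitochondrial genes. Classes came from 17 marker lists, with at least 3 markers to pass and mixed lineages set apart, and Kupffer-like cells needed 2 Kupffer genes besides. No doublet caller was run, so doublets within a lineage remain. Hepatocyte genes were not used to set cells apart as mixed, so doublets of hepatocytes with other cells can remain too. Hepatocyte-like cells needed at least 5 of 10 hepatocyte genes making at least 5% of UMIs. Counts were summed per class and suffix. Total counts of kept cells were 41533901 and 25898466 UMIs. A count of 0 allows up to 3 UMIs. Shares were also taken after thinning to 500 and 1000 UMIs. The libraries were compared by the ratio of CPM with 3 UMIs added, over genes with at least 20 UMIs. Named were the 10 members, partner genes at 100 CPM or more (at most 30), and the 3 most similar genes. The alternatives were other filters, gates, treatment of mixed cells, single cells and averaging. Scripts were tested on simulated data. Members and lists were chosen with earlier results of these data known. Python 3.11.15, numpy 2.4.6, scipy 1.17.1, pandas 2.3.3 and matplotlib 3.10.9 were used.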

Additional observations from a re-analysis of the deposited data

Results flagged for a closer look

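The droplets over the limit of 25% mitochondrial UMIs entered no comparison above, and 8 of the 10 cytokines had more than 3 UMIs in them in at least 1 library. Il1b had 99 UMIs with suffix 1 and 54 with suffix 2, at 5.35 and 2.04 CPM. Il18 had 144 and 148 UMIs (7.78 and 5.60 CPM), and Tgfb1 had 122 and 134 (6.59 and 5.07 CPM). Il1a had 20 and 17, Tnf 20 and 7, Ifng 4 and 5, and Il4 5 and 4 UMIs. Il10 had 5 UMIs with suffix 1 and 2 with suffix 2. Il6 and Osm had at most 1 UMI in either library. These droplets numbered 5675 with suffix 1 and 8886 with suffix 2 at the minimum of UMIs and genes, and their cell classes were not read.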

How the results depend on the processing

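Levels were recomputed under each alternative, and a value was taken as moved when it left the 95% counting interval of the reported one. Of the levels of each member in 1 class (neutrophil-like for Il1b, Cxcr6+ T-like for Tnf, Osm, Ifng and Il4, Kupffer-like for the others), 181 values stayed and 19 moved, and of the other values 292 stayed and 88 moved, 40 of these being shares after thinning. Leaving out barcodes with at least 10% hepatocyte-list UMIs and a minimum of 1000 UMIs moved none of the values computed. Both took few cells from the classes used, so they say little about hepatocyte RNA or depth. The first kept the hepatocyte-like classes whole and took 0 and 7 Kupffer-like and 0 and 1 Cxcr6+ T-like cells with suffix 1 and suffix 2. The second took 4 and 11 Kupffer-like cells. With 2 markers to pass a gate, Kupffer-like levels were lower for Il1a (5.41 and 11.2 CPM), Il18 (35.4 and 54.0), Tgfb1 (36.9 and 64.5) and, with suffix 1, Il6 (0.984), and neutrophil-like Il1b with suffix 1 was at 1905 CPM. Of the other values under this alternative 20 moved and 16 stayed within their counting intervals, among them Ifng in NK or ILC1-like cells (90.6 and 4.85 CPM). Those that moved were lower: the levels of Il1b in Kupffer-like (9.84 and 34.3 CPM) and Il1a in endothelial-like cells (48.4 and 34.0 CPM), and the shares held by Kupffer-like cells of Il1a (5.73% and 9.30%), Il6 (5.41% and 29.4%), Il18 (6.81% and 9.49%), Il10 and Tgfb1 (5.35% and 6.53%) and by Cxcr6+ T-like cells of Tnf, Ifng and Il4. With 4 markers, Kupffer-like cells of suffix 1 had 20.1 CPM of Il1a, 79.0 of Il18 and 122.5 of Tgfb1. A mitochondrial limit of 10% gave Il18 88.4 CPM with suffix 1 and Tgfb1 139.6 and 129 CPM in Kupffer-like cells. Neutrophil-like Il1b with suffix 2 was at 1703 CPM with a limit of 50% and at 1577 CPM with no filter, where Kupffer-like Il18 with suffix 1 was at 58.4 CPM. As a mean over cells, neutrophil-like Il1b was at 2653 and 2303 CPM. The cause of these moves was not tested. With mixed cells given to their leading gate, Kupffer-like cells held 35.9% and 61.1% of Il1a UMIs. Il6, Il10 and Osm had the fewest UMIs in kept cells of both libraries together, with 54, 39 and 38. No paired analysis was possible because no label ties a library to a sample and each genotype has 1 sample.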

Other observations

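Il5, Il13 and Il17a were chosen after their values were seen. Il5 had 0 UMIs in the named classes of both libraries and Il13 had 1 in each, while Il4 had 147 and 169 UMIs in kept cells. Il17a had 9 UMIs in Cxcr6+ T-like cells with suffix 1, in 0.575% of these cells, and 0 with suffix 2. Il12b, a subunit of IL-12, was found in cDC-like cells at 131 CPM (105–162) and 66.9 CPM (50.3–87.4). These levels rest on few cells, 9.09% of 55 and 6.06% of 66, so the intervals are too narrow to compare the libraries. Il15, a survival factor of NK cells and memory T cells, was at 316 and 259 CPM in neutrophil-like cells and at 134 and 131 CPM in Kupffer-like cells. Il1rl1, the receptor for IL-33, was at 482 and 466 CPM in basophil or mast cell-like cells. Pycard, the inflammasome adaptor, was at 2705 and 905 CPM in plasma-like cells.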
